A study of Mus musculus with 20 samples.

Results

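Genes of the machinery that shortens the poly(A) tails of mRNA, 5 of the 8114 listed in either deposited table, were followed through the first 8 h of meiotic resumption in mouse oocytes. Btg4, Cnot1, Cnot8, Cnot10 and Pan2 were found by their gene symbols, and each was listed in the ribosome-bound and in the total RNA table. All libraries came from oocytes of C57BL/6 RiboTag females carrying Zp3-Cre, 3 weeks old, which had received 5 IU of PMSG 44 h earlier. Zp3-Cre acts in growing oocytes, so the HA-tagged ribosomal protein was made in the oocyte and not in the follicle cells around it. Oocytes stripped of cumulus cells were held in prophase I with 1 µM cilostamide, an inhibitor of phosphodiesterase, and moved to medium without it. Pools of 200 oocytes were taken at 0 h (prophase I), 2 h, 4 h and 6 h (early, mid and late prometaphase I) and 8 h (metaphase I). Ribosome-bound mRNA, recovered by pulling down the tag, and total RNA (input) gave 10 groups of 2 libraries, A and B. The labels do not say whether A and B were separate cultures or animals, so the p-values measure only the spread between these samples.

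The poly(A) tail protects an mRNA and helps to recruit ribosomes, and its removal is usually the step that commits an mRNA to decay. The CCR4-NOT complex and the PAN2-PAN3 complex remove most tails in the cytoplasm. A fully grown oocyte makes almost no new RNA, and clears much of its stored maternal mRNA during maturation. BTG4, an oocyte protein of the BTG/TOB family, brings CCR4-NOT to maternal mRNAs in the mouse, and oocytes lacking it keep mRNAs that are normally removed. Many stored mRNAs have short tails in prophase and are put on ribosomes only when their tails are lengthened. That step depends on U-rich cytoplasmic polyadenylation elements, bound by CPEB proteins, together with the polyadenylation hexamer.

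Between prophase I and metaphase I, the members of the decay machinery moved in opposite directions on ribosomes. The adaptor Btg4 and the nuclease subunits Pan2 and Cnot8 rose in ribosome-bound mRNA at 8 h against 0 h, by 3.68-fold, 3.66-fold and 2.48-fold. Cnot1, the scaffold of CCR4-NOT, fell to 0.541 of its 0 h level, and its partner subunit Cnot10 to 0.351. All 5 passed a Benjamini-Hochberg adjusted p of 0.05 in limma, 3 up and 2 down. Among the 7543 genes tested, 42.1% did so (20.2% up and 21.8% down). The members were chosen with earlier results of these data known, so their count is not a test against that share. In total RNA only Cnot8 passed at 8 h, and it fell, where 3.97% of 7917 genes passed in either direction. That share stood for 314 genes, and between 52 and 414 passed when 1 total RNA library was left out. Fold changes are on the scale of log2(value + 1), which slightly understates the changes of low genes, and log2 changes are given ± the standard error from limma (2 libraries per group).

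**Figure D1:**
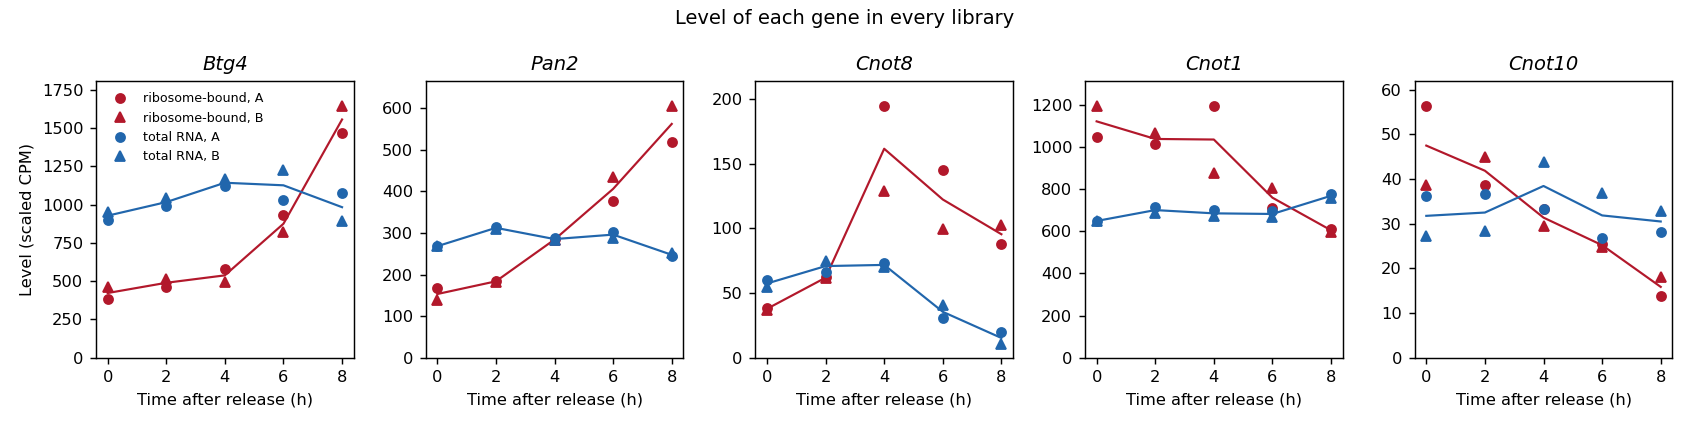
Level of each gene in scaled CPM (vertical axes, starting at 0) against hours after release from cilostamide. Points are single libraries (circles A, triangles B) and lines join the means of ribosome-bound mRNA (red) and total RNA (blue). Btg4 and Pan2 climb on ribosomes up to 8 h, Cnot8 is highest on ribosomes at 4 h, and Cnot1 and Cnot10 end lowest at 8 h.

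Levels are in scaled CPM, the share of a library's reads that fall on a gene, times a factor specific to that library. The depth inferred from the steps between values was 27571236 to 51714900 reads in listed genes per library. The 5 genes had between 338 and 62718 reads in a library, so counting error was between 5.44% and 0.399% of a value. Ribosome-bound 4 h replicate A stood apart from the other ribosome-bound libraries on the second principal component, at -35.2 against -4.88 for the next lowest. The total RNA 8 h replicates lay at -20.2 and 25.0 on theirs. All 12 oocyte markers were listed for ribosome-bound mRNA and 11 of 12 for total RNA. On ribosomes they summed to 21840 to 25220 at 8 h and 39570 to 48090 at 0 h, and in total RNA to 14720 to 15550 at 8 h and 14170 to 14690 at 0 h. These markers did not move alike on ribosomes. Zp1, Zp2, Zp3, Gdf9, Bmp15, Nlrp5, Nobox and Figla were lower in both 8 h libraries than in both 0 h libraries. Dazl, Oosp1 and Mos were higher in both, and Ddx4 overlapped. Of 17 granulosa and cumulus markers 4 were listed for ribosome-bound mRNA (Serpine2, Nr5a2, Cyp19a1 and Fshr), and Amh, Foxl2 and Inha were not among them. These 4 summed to 524.1 to 529.1 at 8 h and 198.6 to 207.1 at 0 h. Serpine2 was the largest part, with 367.6 and 370.5 at 8 h and 96.05 and 125.4 at 0 h. Cyp19a1 and Fshr were also higher in both 8 h libraries than in both 0 h libraries, and Nr5a2 overlapped. In total RNA 6 of 17 were listed, the same 4 with Inha and Inhba, summing to 428.2 to 549.8 at 8 h and 324.4 to 388.9 at 0 h. Their part in the results was not tested. Pecam1 and Tek were the 2 listed of 12 blood, stroma and endothelial markers, summing on ribosomes to 106.3 to 162.4 at 8 h and 155.3 to 189.5 at 0 h. In pooled oocytes, fewer cells that hold an mRNA and less of it per cell cannot be told apart.

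BTG4 joins the CAF1-type nuclease of CCR4-NOT to the translation machinery on maternal mRNAs. Its gene (ENSMUSG00000032056.9, mm10 chr9:51060901-51119875, + strand) is protein coding. In ribosome-bound mRNA at 0, 2, 4, 6 and 8 h, replicate A held 385.3, 464.6, 578.2, 928.9 and 1468.5 scaled CPM of Btg4, and replicate B held 460.0, 514.3, 497.9, 820.9 and 1642.1. Both 8 h libraries were above every earlier one, and both 6 h libraries were above all from 0 to 4 h, whereas the libraries at 2 h and 4 h overlapped. In total RNA at the same times, Btg4 held 900.0, 988.3, 1120.5, 1026.9 and 1072.5 in replicate A and 954.6, 1043.9, 1164.4, 1224.6 and 893.4 in replicate B, with the 8 h libraries on either side of the 0 h libraries. On ribosomes Btg4 averaged 1555 ± 123 at 8 h and 422.7 ± 52.9 at 0 h (SD, n = 2 each).

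The ribosome-bound change of Btg4 was 0.22 ± 0.14 at 2 h and 0.35 ± 0.14 at 4 h on the log2 scale, neither past the threshold in limma (adjusted p 0.484 and 0.109). It rose by 1.05 ± 0.14 at 6 h (adjusted p 4.11e-05) and by 1.88 ± 0.14 at 8 h (adjusted p 3.5e-08). Between neighbouring times it passed at 8 h against 6 h only, by 0.83 ± 0.14 (adjusted p 0.00963), where 0.689% of genes passed. The step at 6 h against 4 h was 0.70 ± 0.14 (adjusted p 0.0788) and passed, at 0.70, when either 0 h library was left out. The call at 8 h against 6 h ended when either 6 h library (0.92 without A, 0.74 without B) or 8 h replicate B (0.75) was left out. The total RNA change at 8 h was 0.08 ± 0.12 (adjusted p 0.777). The rise on ribosomes beyond that of total RNA, tested as the interaction of RNA kind and time, was 1.80 ± 0.19 at 8 h (adjusted p 4.06e-07), where 21% of 7346 genes passed. At 6 h it was 0.78 ± 0.19 (adjusted p 0.00749), a call that ended when transcript length and GC content were corrected for (0.51) or when total RNA 6 h replicate A was left out (0.65).

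The 3′ ends of the transcripts are shown because cytoplasmic polyadenylation elements act there. The letters TTTTAT and TTTTAAT (the element) and AATAAA and ATTAAA (the hexamer) were searched on the transcript strand, overlaps between motifs allowed, in the last 150 bases of 1 GENCODE vM21 transcript per gene. Of 7186 genes whose last 150 bases lay in the 3′ UTR, 27.5% held either form of the element, 83.3% either hexamer and 23.5% both. The chosen Btg4 transcript held TTTTAT at 67 and 116 bases before its end and neither hexamer in that window. A shorter annotated Btg4 transcript, looked at after the longer one, ends at another site. It held AATAAA 30 bases, TTTTAT 96 bases and TTTTAAT 125 bases before that end. Only Btg4 was given such a second look, and any other annotated ends of the remaining members were not searched. The windows below run 5′ to 3′ from the mm10 annotation, with the searched motifs in capitals: Btg4 at chr9:51119797-51119826 (+ strand) and at chr9:51119542-51119571 (+ strand, the shorter transcript).
Btg4: agataaatccctTTTTATgtctttttaaaa
Btg4, shorter transcript: tgccggtgataaAATAAAatgaattatagg

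PAN2 is the nuclease of the PAN2-PAN3 complex, which works on long tails held by poly(A)-binding protein. Pan2 (ENSMUSG00000005682.8, mm10 chr10:128303335-128321358, + strand, protein coding) held 167.3, 184.7, 284.9, 377.2 and 519.7 scaled CPM in ribosome-bound replicate A at 0, 2, 4, 6 and 8 h, and 139.3, 182.9, 283.6, 435.0 and 604.9 in replicate B. No 2 neighbouring times overlapped, and each time lay above the one before it. Total RNA held 268.8, 314.3, 287.5, 303.1 and 244.1 in replicate A and 267.7, 310.6, 283.4, 289.2 and 251.0 in replicate B, both lowest at 8 h.

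On ribosomes Pan2 rose by 0.89 ± 0.15 at 4 h (adjusted p 0.000807), 1.40 ± 0.15 at 6 h (adjusted p 4.48e-06) and 1.87 ± 0.15 at 8 h (adjusted p 8.53e-08) in limma, after 0.27 ± 0.15 at 2 h (adjusted p 0.4). No single step between neighbouring times passed, with 0.63, 0.51 and 0.47 for 4 h against 2 h, 6 h against 4 h (where 0.0663% of genes passed) and 8 h against 6 h. The 4 h against 2 h step passed when either 0 h library was left out, at 0.63 in both cases. The change in total RNA at 8 h was -0.12 ± 0.13 (adjusted p 0.685). Beyond total RNA, Pan2 rose by 0.80 ± 0.19 at 4 h, 1.26 ± 0.19 at 6 h and 1.99 ± 0.19 at 8 h (adjusted p 0.0137, 7.88e-05 and 9.68e-08). On ribosomes, the 4 h rise was 0.89 also without 4 h replicate A, and past the threshold. The call beyond total RNA at 4 h ended without ribosome-bound 0 h replicate B (0.67), total RNA 0 h replicate A (0.80) or total RNA 4 h replicate B (0.79).

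The Pan2 transcript ended with the element and the hexamer close together. It held TTTTAT at 72, 37 and 18 bases and AATAAA at 29 bases before its end, and 30 of these bases, chr10:128321317-128321346 (+ strand), hold the hexamer between the last 2 elements. TTTTAT was found in 21.4% of the 7186 genes and AATAAA in 68.3%.
Pan2: TTTTATaaAATAAAagtatTTTTATctcat

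CNOT8 is a CAF1-type catalytic subunit of CCR4-NOT and, with its close relative CNOT7, the nuclease that BTG/TOB proteins bind. Cnot7 was not listed in either table. Cnot8 (ENSMUSG00000020515.13, mm10 chr11:58104153-58118594, + strand, protein coding) was the only member that passed in both kinds of RNA at 8 h, and it did so in opposite directions. In ribosome-bound mRNA at 0, 2, 4, 6 and 8 h it held 38.4, 62.2, 194.4, 144.9 and 88.0 scaled CPM in replicate A and 37.3, 61.6, 128.6, 99.6 and 102.9 in replicate B. All libraries from 4 h on were above those at 0 h and 2 h, the 6 h libraries overlapped those at 4 h and at 8 h, and both 8 h libraries were below both 4 h libraries. In total RNA it held 59.8, 66.6, 73.6, 30.6 and 20.2 in replicate A and 55.0, 75.1, 69.9, 40.4 and 10.4 in replicate B. Both 8 h libraries were below both 6 h libraries, and these were below all earlier ones.

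Cnot8 rose on ribosomes by 2.04 ± 0.23 at 4 h (adjusted p 1.83e-05 in limma), 1.64 ± 0.23 at 6 h (adjusted p 5.58e-05) and 1.31 ± 0.23 at 8 h (adjusted p 0.000237). At 4 h the rise was 1.74, still past the threshold, without replicate A, the library that stood apart. The 2 h change of 0.70 ± 0.23 did not pass (adjusted p 0.131). The step at 4 h against 2 h passed at 1.34 ± 0.23 (adjusted p 0.0101), where 0.729% of genes did. It did not pass without 4 h replicate A (1.04), or without 2 h replicate A (1.35) or B (1.33). The later steps of -0.39 and -0.33 did not pass. In total RNA Cnot8 fell by 1.91 ± 0.28 at 8 h (adjusted p 0.000462), after -0.69 ± 0.28 at 6 h, which did not pass (adjusted p 0.538). The 8 h value was -2.36 without 8 h replicate A and -1.46 without 8 h replicate B, past the threshold in both cases.

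Beyond total RNA, Cnot8 rose by 1.72 ± 0.37 at 4 h, 2.33 ± 0.37 at 6 h and 3.22 ± 0.37 at 8 h, a 9.30-fold difference between the changes at 8 h (adjusted p 0.00719, 0.000155 and 1.29e-06 in limma). At 8 h it was 3.67 without total RNA 8 h replicate A and 2.77 without replicate B, and at 4 h the call ended without ribosome-bound 4 h replicate A (1.42). Few genes had opposite calls of this kind. Of the 7346 genes in both tables, 15 passed up on ribosomes and down in total RNA at 8 h, which is 0.995% of the 1507 that passed up on ribosomes and 6.58% of the 228 that passed down in total RNA, and Cnot8 was 1 of them. The count rests on the total RNA calls, which fell to 52 genes without total RNA 0 h replicate A, and it was not recomputed there. The annotated end of the Cnot8 transcript is marked incomplete, so its motifs stand outside the shares given above. Within the annotated bases, TTTTAAT began 38 bases and AATAAA 24 bases before the last one, in chr11:58118557-58118586 (+ strand). TTTTAAT was found in 8.29% of the genes searched. The letters TGTANATA, to which Pumilio proteins bind, began 56 bases before the Cnot8 end, in no other member's last 150 bases and in 7.61% of the genes.
Cnot8: TTTTAATtttgtaaAATAAAgattgctttt

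CNOT1 is the large scaffold on which the other CCR4-NOT subunits assemble. Cnot1 (ENSMUSG00000036550.16, mm10 chr8:95719451-95807464, - strand, protein coding) held 1049.5, 1012.0, 1193.2, 711.8 and 611.9 scaled CPM in ribosome-bound replicate A at 0, 2, 4, 6 and 8 h, and 1193.4, 1064.0, 877.4, 807.0 and 597.6 in replicate B. The libraries from 0 to 4 h overlapped, the 6 h libraries were below all of them, and the 8 h libraries were lower still. Replicates differed most at 4 h, where A was the library that stood apart. Total RNA held 646.9, 713.5, 699.7, 697.7 and 779.2 in replicate A and 651.1, 687.7, 670.6, 666.7 and 757.6 in replicate B, with both 8 h libraries above all others.

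Cnot1 fell on ribosomes by 0.56 ± 0.15 at 6 h (adjusted p 0.00939 in limma) and by 0.89 ± 0.15 at 8 h (adjusted p 0.000152), after -0.11 ± 0.15 at 2 h and -0.13 ± 0.15 at 4 h, which did not pass. The call at 6 h ended without 0 h replicate B or without 6 h replicate A (-0.47 each). The total RNA change of 0.24 ± 0.11 at 8 h did not pass (adjusted p 0.246). Beyond total RNA, Cnot1 fell by 1.13 ± 0.18 at 8 h (adjusted p 8.25e-05) and by 0.63 ± 0.18 at 6 h (adjusted p 0.0235), and the 6 h call was lost when any of 5 libraries was left out (-0.54 to -0.64). An antisense gene not listed in the tables, 4930513N10Rik, spans 132 exon bases of Cnot1, and whether reads were counted by strand is not given in the sources used here. TTTTAT lay 64 bases before the Cnot1 transcript end, at chr8:95719504-95719533 (- strand), with no hexamer in the last 150 bases. Cnot1 fell on ribosomes, and whether the element had a part in the change of any member was not tested.
Cnot1: aagatgtattgaTTTTATatatgtgagtac

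CNOT10 binds the N-terminal part of CNOT1 together with CNOT11. Cnot10 (ENSMUSG00000056167.6, mm10 chr9:114585878-114640184, - strand, protein coding) was the lowest of the 5 per kilobase on ribosomes at 8 h. Ribosome-bound mRNA held 56.3, 38.8, 33.2, 25.5 and 13.7 scaled CPM in replicate A at 0, 2, 4, 6 and 8 h, and 38.7, 45.0, 29.6, 24.9 and 17.996 in replicate B. The 0 h and 2 h libraries overlapped, and from 2 h on each time lay below the one before it. Total RNA held 36.2, 36.6, 33.2, 26.8 and 28.1 in replicate A and 27.3, 28.4, 43.7, 37.0 and 33.0 in replicate B, and each later time overlapped 0 h.

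Cnot10 fell on ribosomes by 1.51 ± 0.29 at 8 h (adjusted p 0.000516 in limma) and by 0.86 ± 0.29 at 6 h (adjusted p 0.034). The 6 h call ended when GC content and transcript length were corrected for (-0.81), and when any of 5 libraries was left out, with values from -0.60 (without 0 h replicate A) to -0.88 (without 6 h replicate A). The total RNA change at 8 h was -0.05 ± 0.28 (adjusted p 0.956). Beyond total RNA, Cnot10 fell by 1.46 ± 0.40 at 8 h (adjusted p 0.0108), a call that ended without ribosome-bound 0 h replicate A (-1.20) or total RNA 0 h replicate B (-1.27). None of the searched element or hexamer letters was found in the annotated 3′ UTR of 487 bases of the transcript chosen for it.

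**Figure D2:**
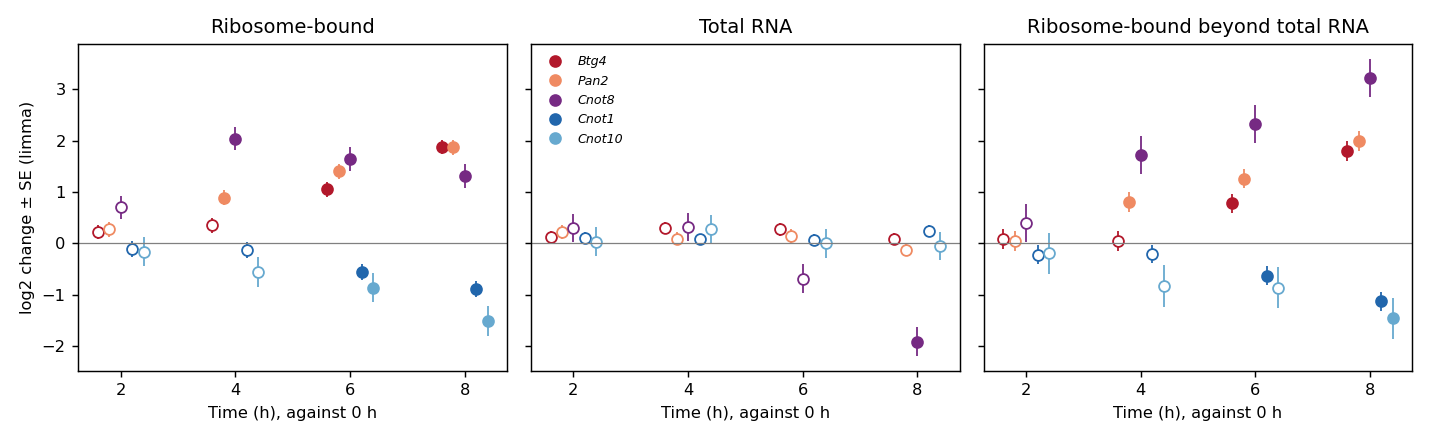
Log2 change of each gene against 0 h (vertical axis, limma, bars are ± SE, 2 libraries per group) at 2, 4, 6 and 8 h, for ribosome-bound mRNA, total RNA and the ribosome-bound change beyond total RNA. Filled points passed an adjusted p of 0.05 and open points did not. At 8 h all 5 genes are filled on ribosomes, and Cnot8 at -1.91 is the only filled point in total RNA.

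The members passed the threshold at different times, and whether their timing differed was not tested. At 2 h none passed on ribosomes, where 1.47% of genes did, although Cnot8 was at an unadjusted p of 0.00768. Pan2 and Cnot8 passed at 4 h, where 15.7% did, and all 5 at 6 h, where 27.9% did. Beyond total RNA none passed at 2 h (background 0.0953%), Cnot8 and Pan2 at 4 h (5.1%), all but Cnot10 at 6 h (11.7%) and all 5 at 8 h. These comparisons share the 0 h libraries, so they do not test one another. In total RNA no gene of 7917 passed at 2 h or 4 h in limma. At an unadjusted p under 0.05, 226 genes were found at 2 h, with no member. At 4 h 347 were found, with Btg4 as the only member (0.30 ± 0.12, adjusted p 0.998 in limma). Both counts were below 0.05 of the 7917 genes, the share such a threshold passes on average where nothing changes. At 6 h 0.202% of genes passed in total RNA, with no member.

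The ribosome-bound level was set beside the level in total RNA at each time, as a description, since the 2 tables were normalized separately. For Btg4 the ratio of means was 0.456, 0.482, 0.471, 0.777 and 1.58 at 0, 2, 4, 6 and 8 h, so it was nearly flat until 4 h. The ratio for Pan2 was 0.571, 0.588, 0.996, 1.37 and 2.27. Cnot8 had 0.659, 0.874, 2.25, 3.44 and 6.24, and its ratio kept climbing after 4 h while its ribosome-bound level did not, because total RNA was lower at 6 h and 8 h. Cnot1 ran the other way with 1.73, 1.48, 1.51, 1.11 and 0.787, as did Cnot10 with 1.495, 1.29, 0.816, 0.791 and 0.520.

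**Figure D3:**
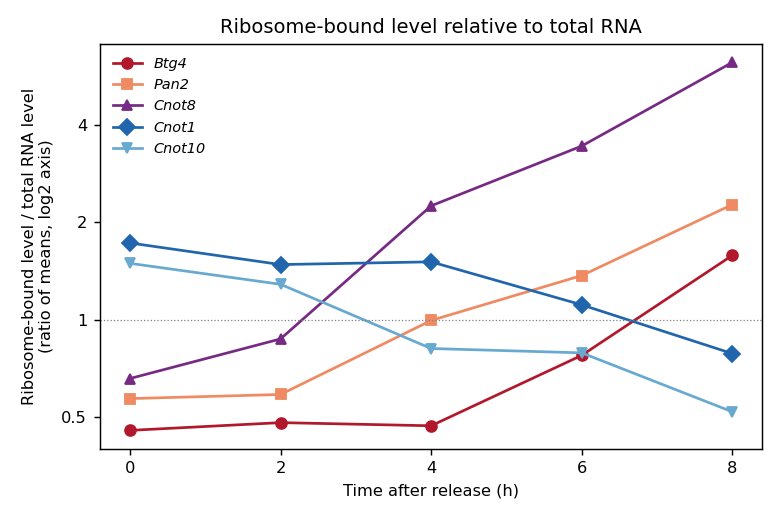
Ratio of the mean ribosome-bound level to the mean total RNA level (vertical axis, log2 scale) against hours after release, 1 line per gene. The 2 tables were normalized separately, so the height of a line is a description. Cnot8, Pan2 and Btg4 end at 6.24, 2.27 and 1.58, and Cnot1 and Cnot10 at 0.787 and 0.520.

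A ratio of 2 genes within a library does not depend on how that library was scaled. On ribosomes the level of Btg4 over that of Cnot1 was 2.40 and 2.75 at 8 h, against 0.367 and 0.386 at 0 h. Pan2 over Cnot1 was 0.849 and 1.01 at 8 h, against 0.159 and 0.117 at 0 h. In total RNA, Btg4 over Cnot1 was 1.38 and 1.18 at 8 h, against 1.39 and 1.47 at 0 h, after 1.60 and 1.74 at 4 h and 1.47 and 1.84 at 6 h.

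The order of the genes was read per kilobase of the annotated transcript. On ribosomes at 0 h, Btg4 was highest at 284 ± 36 scaled CPM per kilobase, then Cnot1 at 134 ± 12 and Pan2 at 34.5 ± 4.4. Cnot8 at 18.02 ± 0.38 and Cnot10 at 16.7 ± 4.4 (SD, n = 2 each) did not differ beyond their spread. At 8 h Btg4 stood at 1047 ± 83, Pan2 at 126.5 ± 13.6 was above Cnot1 at 72.3 ± 1.2, and Cnot8 at 45.5 ± 5.0 was above Cnot10 at 5.56 ± 1.05. In total RNA the order at 8 h was Btg4 at 661.5 ± 85.2, Cnot1 at 91.9 ± 1.8, Pan2 at 55.7 ± 1.1, Cnot10 at 10.7 ± 1.2 and Cnot8 at 7.29 ± 3.32, the last pair within the spread. At 0 h it was Btg4 at 624 ± 26, Cnot1 at 77.6 ± 0.4, Pan2 at 60.4 ± 0.2, Cnot8 at 27.3 ± 1.6 and Cnot10 at 11.1 ± 2.2. Pan2 and Cnot1 exchanged places on ribosomes, and Cnot8 and Cnot10 in total RNA, where the 8 h difference was within the spread.

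Of 10 listed genes of the CCR4-NOT complex, 3 rose on ribosomes at 8 h and 3 fell, where 20.2% of all genes passed up and 21.8% down, and the median log2 change was 0.17 beside -0.06 for all genes. The 3 that rose were the catalytic subunits Cnot8, Cnot6 (1.12 ± 0.33, adjusted p 0.0102) and Cnot6l (1.39 ± 0.14, adjusted p 5.14e-07 in limma), of which Cnot6 and Cnot6l encode CCR4-type nucleases. Cnot6l averaged 1072 scaled CPM at 8 h and 407.6 at 0 h on ribosomes, and 767.5 at 8 h and 680.7 at 0 h in total RNA. Beyond total RNA, Cnot6 did not pass (0.24, adjusted p 0.729). The 3 that fell were the non-catalytic subunits Cnot1, Cnot10 and Cnot2 (-0.48 ± 0.17, adjusted p 0.0322), which forms the NOT module with Cnot3. Cnot4, for a ubiquitin ligase subunit, passed up at 6 h (0.48, adjusted p 0.0425) and not at 8 h (0.34). Cnot3 (0.10), Cnot11 (0.19) and Tnks1bp1 (0.15) did not pass. In total RNA, Cnot8 alone of the 10 passed. Beyond total RNA 2 of the 10 rose (Cnot8 and Cnot6l) and 2 fell (Cnot1 and Cnot10), with a median of -0.06 beside -0.03 for all genes. Of 7346 genes, 850 passed up and 693 down there. Cnot2 did not pass beyond total RNA (-0.48, adjusted p 0.163 in limma).

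Of 4 listed genes of the BTG/TOB family, Btg4 was the only one to rise on ribosomes at 8 h, and 1 fell. Of all genes, 20.2% passed up and 21.8% down there. Tob2, which also recruits CCR4-NOT, fell by 0.45 ± 0.17 (adjusted p 0.0391 in limma). Btg2 at 0.84 ± 0.55 and Tob1 at -0.99 ± 0.48 did not pass. At 8 h, Btg4 averaged 1555 scaled CPM on ribosomes, Tob2 389.7, Tob1 21.7 and Btg2 13.9, not corrected for length. None of the 4 passed in total RNA. Beyond total RNA at 8 h, 1 of the 4 rose (Btg4) and 1 fell, where 850 of 7346 genes passed up and 693 down. The gene that fell there was Tob2, with a log2 change of -0.80 ± 0.23 (adjusted p 0.0146 in limma).

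Of 7 listed genes grouped as PAN2-PAN3 and other deadenylases, 5 rose and none fell on ribosomes at 8 h. The share of all genes that passed up there was 20.2%, and the median log2 change of the 7 was 1.18. The grouping came from general knowledge. Whether each product shortens tails, among them those of Angel1, Angel2 and Noct, was not tested. Beyond total RNA 3 of the 7 rose, where 850 of 7346 genes passed up, with a median of 0.70 beside -0.03 for all genes. Pan3, the partner that ties PAN2 to poly(A)-binding protein, rose by 0.46 ± 0.14 (adjusted p 0.0155 in limma), less than Pan2. Angel2 rose by 1.35 ± 0.15, Noct by 1.18 ± 0.17 and the mitochondrial deadenylase gene Pde12 by 1.38 ± 0.54 (adjusted p 0.0495). Angel1 (-0.13) and Parn (-0.06) did not pass. Beyond total RNA, Pan3 (0.12, adjusted p 0.666) and Pde12 (1.32, adjusted p 0.18) did not pass. Angel2 was the only one of the 7 to pass in total RNA, where it rose by 0.64 ± 0.13 (adjusted p 0.00732).

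**Figure D4:**
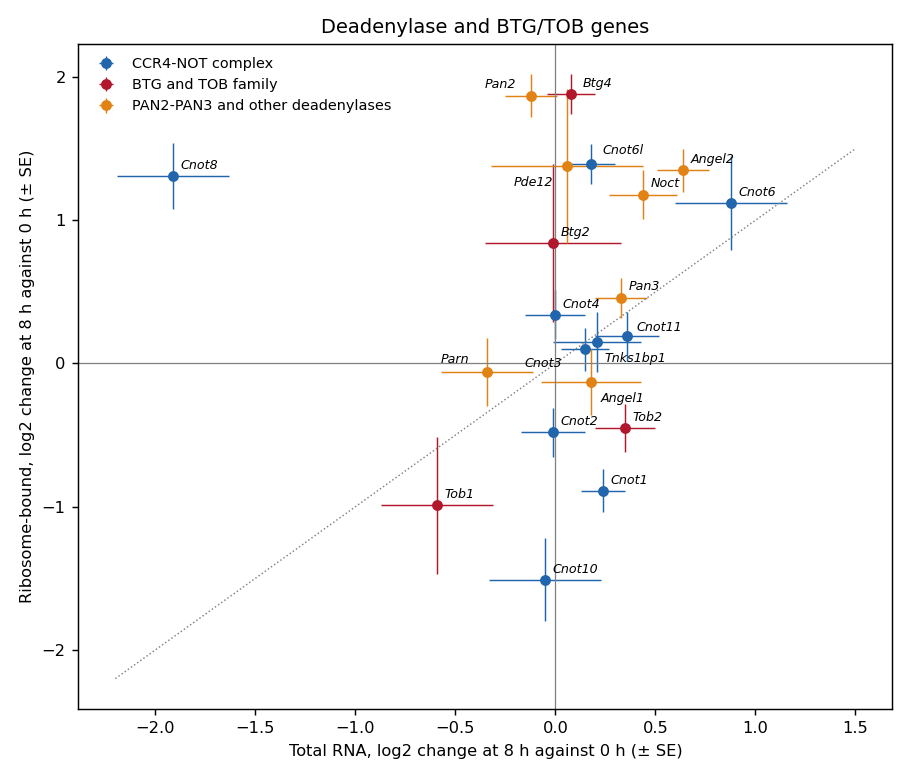
Log2 change at 8 h against 0 h in ribosome-bound mRNA (vertical axis) and in total RNA (horizontal axis). Shown are the listed genes of CCR4-NOT (blue), the BTG/TOB family (red) and those grouped as PAN2-PAN3 and other deadenylases (orange). Bars are limma standard errors, and the dotted line marks equal change. Cnot8 lies alone at the upper left, with 1.31 on ribosomes and -1.91 in total RNA.

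Of 3 listed genes for poly(A)-binding proteins, which cover poly(A) tails, 2 fell on ribosomes at 8 h and none rose. Of all genes, 21.8% passed down there and 20.2% up, and the median was -0.92 beside -0.06 for all genes. Beyond total RNA 1 of 3 fell, where 693 of 7346 genes passed down. Pabpc1l, the form abundant in oocytes, fell by 1.79 ± 0.15 (adjusted p 8.53e-08 in limma) to 146.2 scaled CPM at 8 h, against 508.4 at 0 h, while total RNA held 201.4 at 8 h and 187.2 at 0 h. Pabpc4 fell by 0.92 ± 0.21, and Pabpc1 at -0.36 ± 0.48 did not pass (adjusted p 0.575).

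On ribosomes, the genes for the later steps of decay showed no common direction. Of 13 listed genes of decapping and 5′ to 3′ decay 5 rose and 3 fell on ribosomes at 8 h, with a median of -0.12, where 20.2% of all genes passed up and 21.8% down. Dcp1a, an activator of decapping, rose by 1.03 ± 0.13 and Lsm14a, an RNA granule protein, by 0.81 ± 0.14. Lsm4 and Lsm6, subunits of the LSM ring, fell by 1.04 ± 0.29 and 1.08 ± 0.31. Of 10 exosome and SKI genes 2 rose and 3 fell against the same shares of all genes (median -0.21): the exosome subunit gene Exosc3 rose by 1.84 ± 0.33, whereas Exosc1, also for an exosome subunit, fell by 1.95 ± 0.28. Ttc37, for a SKI subunit, rose by 0.65 ± 0.18 and Hbs1l fell by 1.18 ± 0.25. Neither of the 2 listed terminal uridylyl transferase genes, Zcchc6 and Tut1, passed. Beyond total RNA, 2 of the 13 decapping and 5′ to 3′ decay genes rose and 1 fell. There 2 of the 10 exosome and SKI genes fell and none rose, where 850 of 7346 genes passed up and 693 down. Of the genes named, Dcp1a, Exosc1 and Hbs1l passed beyond total RNA, and Lsm14a, Lsm4, Lsm6, Exosc3 and Ttc37 did not.

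Of 14 listed genes for RNA-binding proteins that recruit CCR4-NOT, 3 rose and 1 fell on ribosomes, where 20.2% of all genes passed up and 21.8% down, with a median of 0.10. Beyond total RNA 1 of 14 rose, where 850 of 7346 genes passed up, with a median of -0.18 beside -0.03 for all genes. Ythdf3, a reader of N6-methyladenosine, rose by 1.19 ± 0.15 and Tnrc6b, a partner of Argonaute, by 0.55 ± 0.16. Cpeb1, for a protein that binds cytoplasmic polyadenylation elements, fell by 0.65 ± 0.14 to 1272 scaled CPM at 8 h, against 1992 at 0 h. Across these 5 groups of genes outside the deadenylases, Lsm3 was the only gene to pass in total RNA at 8 h, where it fell by 1.46 ± 0.36 (adjusted p 0.0249). It was named after its value was seen.

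The genes with the most similar ribosome-bound course were taken as those with the smallest root mean square difference in log2 change from the 0 h mean over the 8 libraries from 2 h to 8 h, among 5323 genes. For Btg4 these were Trp53bp1 (0.17), Mbd3l2 (0.19) and Esyt2 (0.20), beside a median difference of 1.14 over all genes. For Pan2 they were Iqgap2 (0.10), Zfp280d (0.10) and Kdm6a (0.11). Stoml2 (0.29), Prrg1 (0.32) and Aurkc (0.34) were nearest to Cnot8, at larger distances. Pik3c3 (0.08), Txnl1 (0.12) and Caprin2 (0.12) were nearest to Cnot1, and Rab3gap1 (0.12), Pkm (0.14) and Apitd1 (0.18) to Cnot10. No other member was among the 3 nearest of any member. Ranking on the 4 time means kept 1 of 3 for Btg4, Cnot1 and Cnot10, 2 of 3 for Pan2 and 3 of 3 for Cnot8.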

How the data were processed

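Each RNA kind had 1 deposited table of scaled CPM, treated here as a signal. Library totals lay between 968768 and 1052767, and in 10 of 20 libraries they were above what plain CPM allows. The authors used Trimmomatic 0.36, HISAT2, HTSeq, limma, edgeR, SAMtools and FastQC, with mm10, per the submitters' processing notes, which are given here without role or order. Poly(A) selection, strandedness and the rule for listing genes: not given in the sources used here. Every value was a whole multiple of 1 step per library (tolerance 0.01 of a step), from which depth was inferred; 282 to 533 reads lay behind a value of 10. Descriptions of the total RNA samples also say ribosome-bound, so their titles and the series design decided the groups.

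The log2 of each value plus a pseudocount of 1 entered the fit if at least 2 libraries of the same RNA kind reached a value of 1. Each RNA kind was fitted on its own libraries, and the interaction on all 20 libraries. The model, limma 3.58.1 (R 4.3.3) with trended empirical Bayes, covered all times per RNA kind, and the interaction covered 7346 shared genes. Tests were two-sided, adjusted by Benjamini-Hochberg over each table, with a threshold of 0.05, and the fit was tested on simulated data. Replicates differed by more than counting error in every group, with chi-square per degree of freedom from 48.6 to 154.5. The members and lists were chosen with earlier results of these data known. Named are the members, every listed deadenylase and BTG/TOB gene, up to 2 genes per direction of each other list with the smallest p at 8 h, and the 3 nearest courses per member (mean of at least 20, no unnamed gene models). Annotation was GENCODE vM21, matched by ID, where 5839 of 8114 IDs had the same version, 2264 had another and 11 were not found.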

Additional observations from a re-analysis of the deposited data

Results flagged for a closer look

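The ribosome-bound change of the members differed from their change in total RNA, tested as the interaction of RNA kind and time in limma. At 4 h the difference was 1.72 for Cnot8 and 0.80 for Pan2 on the log2 scale. At 6 h it was 2.33 for Cnot8, 1.26 for Pan2, 0.78 for Btg4 and -0.63 for Cnot1. At 8 h it was 3.22 for Cnot8, 1.99 for Pan2, 1.80 for Btg4, -1.13 for Cnot1 and -1.46 for Cnot10.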

How the results depend on the processing

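At 8 h against 0 h, all 80 values of the 5 members on ribosomes under the alternatives run (pseudocount, filter, centring, length and GC correction, replicate block, each library left out) kept their direction and side of the threshold, as did 77 of 80 in total RNA and 133 of 135 beyond total RNA. Beyond total RNA, Cnot10 lay between -1.73 and -1.20 with 1 library left out and lost its call in 2 of these fits. In total RNA the uncalled changes of Btg4 (between -0.05 and 0.21) and Cnot10 (between -0.24 and 0.15) at 8 h turned in sign. Those of Cnot1 (0.22 to 0.26 with 1 library left out) and Pan2 (-0.14 to -0.1) were also uncalled and kept their sign. The 314 genes called in total RNA at 8 h became 52 without 0 h replicate A and 414 at most, with 161 without 0 h replicate B and 195 without 8 h replicate A; the cause was not tested. On ribosomes 3173 genes were called at 8 h, 1525 up and 1648 down, against 1677 up and 1487 down with libraries centred on their medians.

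Other changes that turned in sign were not past the threshold in any fit. With 1 library left out they ran, on ribosomes, from -0.42 to 0.11 (Cnot10, 2 h) and from -0.35 to 0.09 and -0.24 to 0.20 (Cnot1, 4 h against 0 h and 2 h). In total RNA they ran from -0.16 to 0.23 and -0.27 to 0.18 (Cnot10, 2 h against 0 h and 8 h against 6 h), from -0.06 to 0.11 (Cnot8, 4 h against 2 h), and at 6 h against 4 h from -0.15 to 0.10 (Btg4) and -0.04 to 0.03 (Cnot1). Beyond total RNA they ran from -0.04 to 0.21, -0.46 to 0.07 and -0.08 to 0.18 (Btg4, Cnot10 and Pan2, 2 h), and from -0.08 to 0.18 and -0.43 to 0.01 (Btg4 and Cnot1, 4 h). The length and GC correction gave Btg4 -0.03 on ribosomes and 0.02 in total RNA (4 h against 2 h, 6 h against 4 h) and -0.17 beyond total RNA at 4 h, and centring gave Cnot1 0.01 in total RNA (6 h against 4 h).

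Whether the letters A and B mark a shared pool or day is not stated, and they were not taken as pairs: deviations of same-letter libraries correlated between -0.107 and 0.0487 on ribosomes and between -0.0474 and 0.115 in total RNA. With the replicate block, Btg4 still changed by 1.88 and Cnot8 by 1.31 on ribosomes at 8 h, 3081 genes were called there, and 57 in place of 111 at 2 h. The planned edgeR and DESeq2 tests on recovered reads were not run, since the values were kept as a signal and not taken as counts. Motif shares with 100 and 250 bases were 21.3% and 36% for the element. With 2 libraries per group, small changes in total RNA cannot be told from none.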
